A study of Homo sapiens with 6 samples.

Results

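The genes described here encode collagen chains and the proteins that hydroxylate, fold, trim and cross-link them. The list held 35 genes, and its members were all probe sets of the array whose annotated gene symbol was on it. Of these genes, 34 were measured by at least 1 probe set with no other symbol (23 collagen chains and 11 enzymes or chaperones), with 78 probe sets of the 22215 tested. COL17A1, the transmembrane collagen of hemidesmosomes, has no probe set named in the annotation used here and was not analysed here.

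Total RNA of SUM-159 cells, a triple-negative breast cancer line, was hybridised to 6 Affymetrix arrays. In 3 of them the cells carried the empty pcDNA 3.1 vector as a stable transfection, and in the other 3 they carried the same vector with SH3GL2 (endophilin A1), a membrane-curving protein of endocytosis described as a tumour suppressor. The question put to the arrays was which transcripts change when SH3GL2 is overexpressed. Whether the replicates came from separate cultures or the lines from single clones is not given in the sources used here, so p-values measure the spread between arrays, which may be technical.

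Values are log2 signals, so a difference of 1 is a doubling. Across the whole table they ran from 2.82 to 15.31, with array medians of 6.97 to 7.02 and Pearson correlations of 0.9971 to 0.9982 within groups and 0.9947 to 0.9965 between them. To show what signal a probe set gives where no transcript is expected, 93 probe sets of 62 genes of other organs were used as a reference: their median was 4.99 and their 95th percentile 7.06, and 49.2% of all probe sets had a mean over the 6 arrays above the latter. A probe set is counted as above it where the higher of its group means was. The SH3GL2 probe set itself (205751_at) read 3.24, 3.18 and 3.25 with empty vector and 3.15, 3.33 and 3.29 with SH3GL2, under the reference median in all 6 arrays, and so cannot check the labels.

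Collagens are built from chains wound into triple helices. Fibrillar chains (types I, III, V and XI) form the banded fibrils of connective tissue, type IV forms the sheet of basement membranes, and type VI forms beaded filaments at the cell surface. In the endoplasmic reticulum prolyl and lysyl hydroxylases modify the chains and the chaperone SERPINH1 (HSP47) guards the folded helix; outside the cell, propeptides are cut off and lysyl oxidases begin the cross-links that stiffen the fibril. Carcinoma cells of mesenchymal character, which SUM-159 cells resemble, are known to make many of these chains themselves.

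With SH3GL2, 4 of 7 fibrillar and 2 of 3 type VI collagen genes fell. So did the propeptide cleavage enhancer PCOLCE and all 3 lysyl oxidases on the list, while 3 of 5 basement membrane collagen IV genes rose. Taking for each gene the probe set with the highest mean over the 6 arrays, 10 of 34 genes fell, 3 rose and 21 did not pass the test (limma, adjusted p under 0.05 over all probe sets). Over all 11963 genes measured in this way, 2.36% fell and 2.54% rose. The median log2 fold change, SH3GL2 minus empty vector, was -0.09 over the 34 genes, against 0.02 over all genes. The 23 chains divided into 6 lower, 3 higher and 14 not called, and the 11 enzymes and chaperones into 4 lower and 7 not called. None of the latter rose in limma. At an unadjusted p under 0.05, 6 of the 11 were lower and 0 higher, beside 7.56% lower and 9.94% higher over all genes, so that 0 of 11 is near the share over all genes. With all values under the reference median raised to it, COL1A1, COL5A1, COL5A2, COL6A3 and PCOLCE still fell and COL4A1 still rose. The other calls did not pass (adjusted p = 0.0557 for COL4A2 and 0.0788 for COL6A1, limma). COL4A2 and COL6A1 had no value under that median on these probe sets, and their log2 fold changes stayed at 0.58 and -0.73. For such probe sets the setting changed only the spread that limma shares between probe sets and the adjustment of p-values. One-way analysis of variance, whose spread is not shared between probe sets, called COL5A2 and COL6A3 lower and none of the 34 genes higher, beside 0.234% lower and 0.167% higher over all genes.

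**Figure D1:**
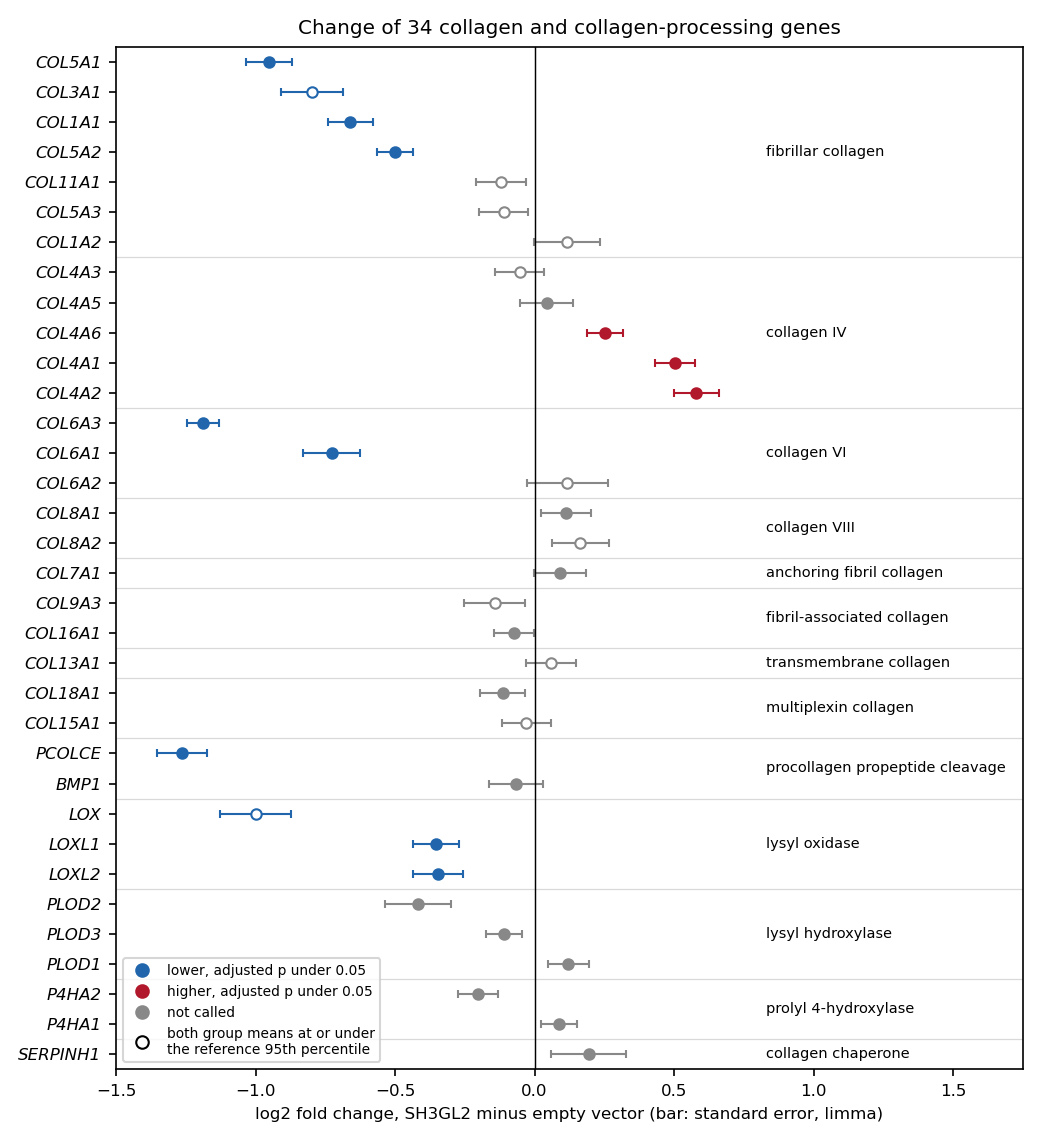
Log2 fold change (SH3GL2 minus empty vector) of the 34 genes, grouped by class, each on its probe set with the highest mean signal; bars are the standard error from limma, and open points mark genes whose group means both lay at or under 7.06, the 95th percentile of the reference. The 10 lower genes (blue) fall among fibrillar collagens, collagen VI, propeptide cleavage and lysyl oxidases, and the 3 higher genes (red) are all collagen IV chains.

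Counted by probe set, 18 of 78 were lower and 4 higher, beside 2.18% lower and 1.99% higher over all 22215. In all, 14 of the 34 genes had a call on any probe set, and in no gene did called probe sets point both ways. Of the 34 genes 22 have several probe sets, and each adds an opportunity for a call. The share of all genes with a call on any probe set was not computed, so the 14 cannot be set beside one. The groups did not overlap in 29 of the 78 probe sets (22 lower and 7 higher with SH3GL2), among them the 22 that were called. Over all probe sets 8.97% were lower and 10.5% higher without overlap. The 56 uncalled probe sets ranged from -0.42 to 0.23 on the log2 fold change scale, and 17 of them lay above the reference 95th percentile. For 11 genes no probe set reached that level.

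**Figure D2:**
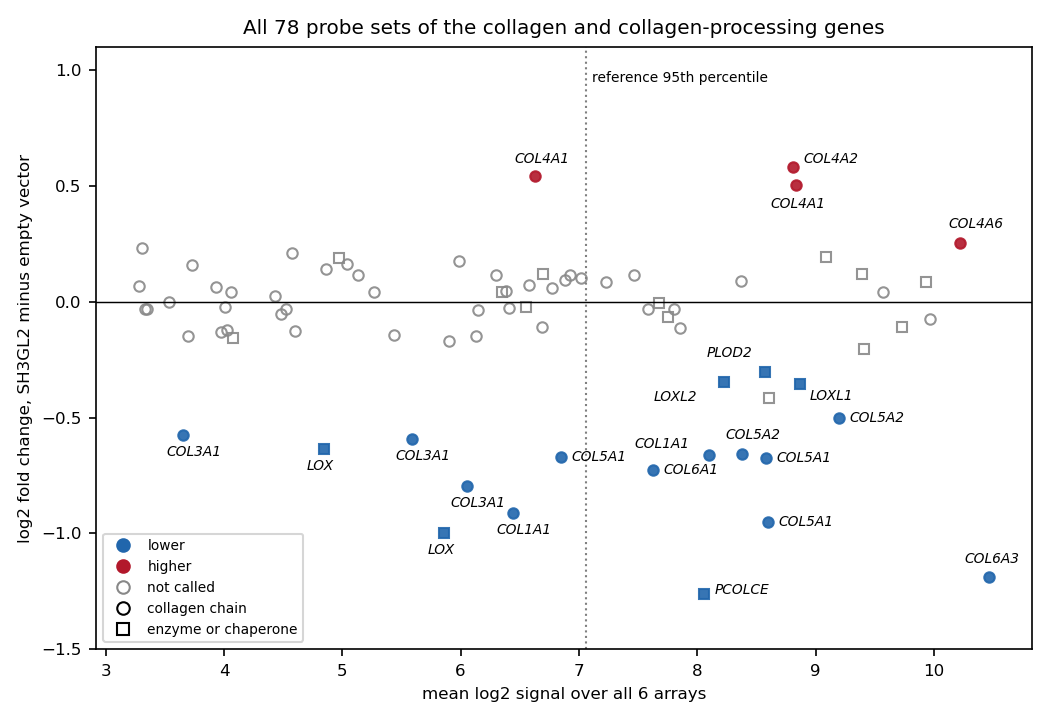
Each of the 78 probe sets by its mean log2 signal over all 6 arrays (horizontal) and its log2 fold change (vertical); filled points passed an adjusted p of 0.05, circles are collagen chains, squares are enzymes or the chaperone, and the dotted line is the reference 95th percentile of 7.06. Called probe sets lie on both sides of that line, with the larger decreases at PCOLCE (-1.26), COL6A3 (-1.19) and LOX (-1.0).

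Fibrillar collagens fell in 4 of 7 genes, with a median log2 fold change of -0.50: COL1A1, COL3A1, COL5A1 and COL5A2. Of the 19 probe sets of the class 10 fell and none rose in limma. Of the 7 genes 4 were lower and 0 higher at an unadjusted p under 0.05, and 1 was lower and 0 higher by analysis of variance, where few genes of the whole table are called higher either. Of the 7 fibrillar probe sets above the reference 95th percentile, 6 were lower, beside 382 of all 11119 tested probe sets above that level.

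COL5A1 and COL5A2 encode the chains of type V collagen, which sits inside type I fibrils and limits their width. COL5A1 (212488_at) read 9.0, 9.08 and 9.13 in the empty vector arrays and 8.0, 8.26 and 8.10 in the SH3GL2 arrays. The groups were well apart, and the log2 fold change was -0.95 (SE 0.08, adjusted p = 2.22e-05, limma), that is 51.8% of the empty vector level. Both other COL5A1 probe sets also fell, each by 0.67 on the log2 scale. The 250 bases before the COL5A1 start (RefSeq, GRCh38.p14, chr9:134641553-134641802, plus strand) are shown since all 3 probe sets of this gene moved together; capitals mark GGGCGG read on either strand, the core of a GC box:
COL5A1: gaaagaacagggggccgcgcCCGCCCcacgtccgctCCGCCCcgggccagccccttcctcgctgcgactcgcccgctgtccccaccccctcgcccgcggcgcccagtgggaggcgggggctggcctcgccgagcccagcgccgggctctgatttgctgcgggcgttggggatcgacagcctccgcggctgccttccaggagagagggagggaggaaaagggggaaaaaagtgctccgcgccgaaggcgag

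This window holds the motif at 2 places, and 42.6% of all 35116 windows of 250 bases before a start hold it at least once. It held neither the CCAAT box, which stands in 32.0% of those windows on either strand, nor the E-box form CAGGTG that SNAI and ZEB factors bind (17.5%), nor the TATA box form TATAAA (10.7%). A match is a description of the letters only.

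COL5A2 (221729_at) read 9.42, 9.48 and 9.44 against 8.94, 8.90 and 9.0, a log2 fold change of -0.50 (SE 0.07, adjusted p = 5.57e-04, limma), and its second probe set fell by 0.66. Every SH3GL2 array was below every empty vector array on both probe sets. COL5A3, the minor chain of the same collagen, did not pass on either probe set (-0.11 and -0.17), both of which lay under the reference 95th percentile.

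COL1A1 encodes the alpha 1 chain of type I collagen, the main fibril protein of connective tissue. On its brightest probe set (202310_s_at) the signals were 8.46, 8.30 and 8.53 with empty vector and 7.73, 7.78 and 7.80 with SH3GL2. The difference was -0.66 (SE 0.08, adjusted p = 3.80e-04, limma). A second probe set, under the reference 95th percentile, fell by 0.91, whereas the other two did not pass (-0.03 each), one of which carries the _x_ suffix that the manufacturer gives to probes shared with unrelated sequences.

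COL1A2, the partner chain that joins COL1A1 in the type I helix, read 5.10, 5.12 and 5.01 against 5.37, 4.93 and 5.28 on 202403_s_at. These values lie near the reference median and the groups overlapped (0.12, SE 0.12, adjusted p = 0.723, limma), and its other probe set lay under that median. A change of COL1A2 could therefore not be read from these arrays. COL11A1, a minor chain of cartilage-type fibrils, was under the reference median on both probe sets as well, at -0.12 and -0.15.

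COL3A1, the chain of type III collagen in elastic and healing tissue, was dim throughout. Its brightest probe set (215076_s_at) read 6.43, 6.43 and 6.5 against 5.42, 5.72 and 5.83, a log2 fold change of -0.80 (SE 0.11, adjusted p = 9.51e-04, limma). Its next probe sets fell by 0.59 (one with the _x_ suffix) and 0.58, and the last one did not pass, all of them under the reference 95th percentile. With values under the reference median raised to it, none of the 3 calls passed (adjusted p = 0.0644 on 215076_s_at, limma). On 215076_s_at and the probe set with the _x_ suffix no value was under that median, and their log2 fold changes did not move. Every signal of COL3A1 nonetheless lay in the range of the reference probe sets.

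Collagen IV moved the other way. Of its 5 measured genes 3 rose (COL4A1, COL4A2 and COL4A6), none fell, and the median log2 fold change was 0.25. At an unadjusted p under 0.05 in limma 3 of the 5 were higher and 0 lower, and analysis of variance called 0 of the 5 in either direction. COL4A1 and COL4A2 encode the chains of the classical helix found in nearly all basement membranes, and the remaining chains form more restricted networks in kidney, lung, skin and smooth muscle.

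COL4A1 (211980_at) read 8.54, 8.59 and 8.61 in the empty vector arrays and 9.18, 9.03 and 9.04 in the SH3GL2 arrays. All SH3GL2 arrays were above all controls, with a log2 fold change of 0.50 (SE 0.07, adjusted p = 0.00110, limma), 1.42-fold. COL4A2 (211964_at) read 8.47, 8.61 and 8.48 against 8.96, 9.15 and 9.19, a difference of 0.58 (SE 0.08, adjusted p = 9.38e-04, limma), 1.49-fold. The second, dimmer probe set of each gene was also higher in every SH3GL2 array: that of COL4A1 passed (0.54, adjusted p = 0.0201) and that of COL4A2 did not (0.18, adjusted p = 0.369). The dimmer COL4A1 call was lost without empty vector array 1 or 2 or SH3GL2 array 1 or 3 (adjusted p 0.0550 to 0.104).

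The genes of these chains lie head to head on chromosome 13, transcribed in opposite directions from a shared promoter region. The 126 bases between both starts (RefSeq, GRCh38.p14, chr13:110307158-110307283, written on the strand of COL4A2) are shown because both genes rose; capitals mark the CCAAT box and the GC box core named above:
between COL4A1 and COL4A2: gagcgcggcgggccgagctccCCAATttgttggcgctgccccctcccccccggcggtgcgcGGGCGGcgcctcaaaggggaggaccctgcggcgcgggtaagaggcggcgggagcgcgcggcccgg

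The stretch is 80.2% G and C and holds each of these motifs at 1 place. COL4A5 and COL4A6 form the corresponding pair on chromosome X, with their nearest starts 379 bases apart, and the call was made for 1 of them. COL4A6 (213992_at) read 10.04, 10.13 and 10.12 against 10.43, 10.26 and 10.36, a small rise of 0.25 (SE 0.06, adjusted p = 0.0434, limma). COL4A5 read 9.34, 9.62 and 9.68 against 9.75, 9.51 and 9.51, with overlapping groups and a difference of 0.04 (SE 0.10, adjusted p = 0.890). Whether the changes of these neighbours differ was not tested.

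The COL4A6 call was not stable. Its other probe sets did not pass (0.08 and 0.07), and leaving out any array except SH3GL2 array 2 took its adjusted p to between 0.0980 and 0.175, and centring each array on its median took it to 0.0841. The probe sets of COL4A3, 7 in number, all lay under the reference median, with log2 fold changes of -0.05 to 0.23 and no call.

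Type VI collagen is a heterotrimer of COL6A1, COL6A2 and COL6A3. COL6A3 held one of the clearest decreases among the 78 probe sets. The single probe set (201438_at) read 11.04, 11.03 and 11.12 with empty vector and 9.88, 9.83 and 9.91 with SH3GL2. The log2 fold change was -1.19 (SE 0.06, adjusted p = 9.71e-08, limma), 43.8% of the control level and number 18 of all probe sets by size of decrease. The call held under every alternative computed for it. The 250 bases before the COL6A3 start (RefSeq, GRCh38.p14, chr2:237414165-237414414, minus strand) held none of these motifs on either strand and so carry no capitals:
COL6A3: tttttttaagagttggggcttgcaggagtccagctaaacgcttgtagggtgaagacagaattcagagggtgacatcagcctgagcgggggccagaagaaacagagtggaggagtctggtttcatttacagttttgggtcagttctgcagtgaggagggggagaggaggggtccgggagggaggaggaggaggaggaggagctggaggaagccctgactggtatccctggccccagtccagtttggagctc

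COL6A1 fell on 1 of its 8 probe sets. That probe set (213428_s_at), its brightest, read 8.13, 7.91 and 7.93 against 7.11, 7.23 and 7.45, a log2 fold change of -0.73 (SE 0.10, adjusted p = 9.82e-04, limma). The other 7 ran from -0.15 to 0.21 without a call, and 1 of them, at a mean of 6.97 with empty vector and 7.07 with SH3GL2, reached the reference 95th percentile. COL6A2, its neighbour on chromosome 21 and partner in the helix, read 6.47, 6.42 and 5.82 against 6.38, 6.35 and 6.33 (0.12, SE 0.15, adjusted p = 0.786). The third empty vector array was low there, both probe sets lay under the reference 95th percentile, and the second gave -0.04.

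The remaining chains did not pass in either direction, and none of these 8 genes had a log2 fold change beyond -0.14 or 0.16. Collagen VIII, a network collagen of vessel walls, gave 0.11 for COL8A1 and 0.16 for COL8A2. COL7A1, which anchors epithelium to the stroma, gave 0.09, and the fibril-associated COL16A1 and COL9A3 gave -0.07 and -0.14. The transmembrane COL13A1 was at 0.06, and COL15A1 and COL18A1, whose ends release anti-angiogenic fragments, were at -0.03 and -0.11. Of these, COL8A2, COL9A3, COL13A1 and COL15A1 lay under the reference 95th percentile.

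Among the processing genes, PCOLCE changed by the most. It encodes a secreted protein that speeds removal of the C-terminal propeptide of fibrillar procollagens by BMP1-type proteinases. Its probe set (202465_at) read 8.67, 8.68 and 8.72 with empty vector and 7.33, 7.62 and 7.33 with SH3GL2. The groups were separated by over 1 log2 unit, and the fold change was -1.26 (SE 0.09, adjusted p = 3.97e-06, limma), 41.7% of the control level and number 15 by size of decrease among all probe sets. The 250 bases before the PCOLCE start (RefSeq, GRCh38.p14, chr7:100602113-100602362, plus strand) hold 1 GC box core, in capitals as its reverse complement, and overlap the antisense gene PCOLCE-AS1:
PCOLCE: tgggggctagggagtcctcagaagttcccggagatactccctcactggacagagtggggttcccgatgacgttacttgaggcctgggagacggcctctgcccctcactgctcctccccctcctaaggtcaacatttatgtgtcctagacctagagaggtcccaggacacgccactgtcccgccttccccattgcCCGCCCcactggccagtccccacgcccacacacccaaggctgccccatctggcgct

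BMP1, the proteinase that PCOLCE assists, gave -0.07 on its brightest probe set (adjusted p = 0.820, limma) and -0.02 to 0.12 on the other 3. Of its 4 probe sets 2 lay above the reference 95th percentile. The test of the difference between PCOLCE and BMP1 was not run, and values are given side by side only.

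All 3 lysyl oxidases on the list fell. These copper enzymes oxidise lysines of collagen and elastin, which starts cross-linking. LOX (215446_s_at) read 6.40, 6.12 and 6.57 against 5.32, 5.22 and 5.55, a log2 fold change of -1.0 (SE 0.13, adjusted p = 4.45e-04, limma), and its groups did not overlap. A second LOX probe set fell by 0.64 (adjusted p = 0.0171) and the last gave -0.16 without a call. All LOX probe sets lay under the reference 95th percentile. With values under the reference median raised to it neither call passed (adjusted p = 0.0706 and 0.452, limma). On 215446_s_at no value was under that median, so its log2 fold change stayed at -1.0. There only the spread that limma shares between probe sets and the adjustment of p-values differed. On the second probe set values were raised and the change shrank to -0.22. Without empty vector array 1 or 2 or SH3GL2 array 1 or 3 the second probe set lost its call (adjusted p 0.0711 to 0.0930).

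LOXL1 and LOXL2 were well above the reference and fell by less. LOXL1 read 9.08, 9.02 and 9.02 against 8.52, 8.82 and 8.72 (-0.35, SE 0.08, adjusted p = 0.0304, limma). LOXL2 (202998_s_at) read 8.39, 8.36 and 8.45 against 7.90, 8.04 and 8.22 (-0.35, SE 0.09, adjusted p = 0.0470), while its other probe sets gave 0.04 and 0.19 at dimmer signal. In both genes every SH3GL2 array was below every control. Both calls sit close to the threshold: LOXL1 passed without 1 array only where that was SH3GL2 array 2 (otherwise 0.0794 to 0.102), and LOXL2 only where it was SH3GL2 array 3 (otherwise 0.0894 to 0.146).

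The enzymes that act inside the cell mostly did not pass. The lysyl hydroxylase PLOD2, which makes the hydroxylysines of stiff cross-links in telopeptides, read 8.54, 8.85 and 9.05 against 8.54, 8.24 and 8.41 on its brightest probe set, where the groups met and the difference was -0.42 (SE 0.12, adjusted p = 0.0729, limma). Its other probe set (202619_s_at) read 8.65, 8.75 and 8.78 against 8.48, 8.37 and 8.42, without overlap, and passed at -0.30 (SE 0.07, adjusted p = 0.0356). That call was kept without empty vector array 1 and lost without any other array (0.0509 to 0.143). PLOD1 and PLOD3, the remaining lysyl hydroxylases, gave 0.12 and -0.11.

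The prolyl 4-hydroxylase subunits P4HA1 and P4HA2, which stabilise the helix, gave 0.09 (adjusted p = 0.601, limma) and -0.20 (adjusted p = 0.160). P4HA2 was lower in every SH3GL2 array. The chaperone SERPINH1 stood at 8.99 ± 0.17 (SD, n = 3) with empty vector and 9.18 ± 0.32 with SH3GL2, 0.19 higher with a standard error of 0.13 and an adjusted p of 0.565. These genes, like PLOD1, PLOD2 and PLOD3, all lay above the reference 95th percentile.

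**Figure D3:**
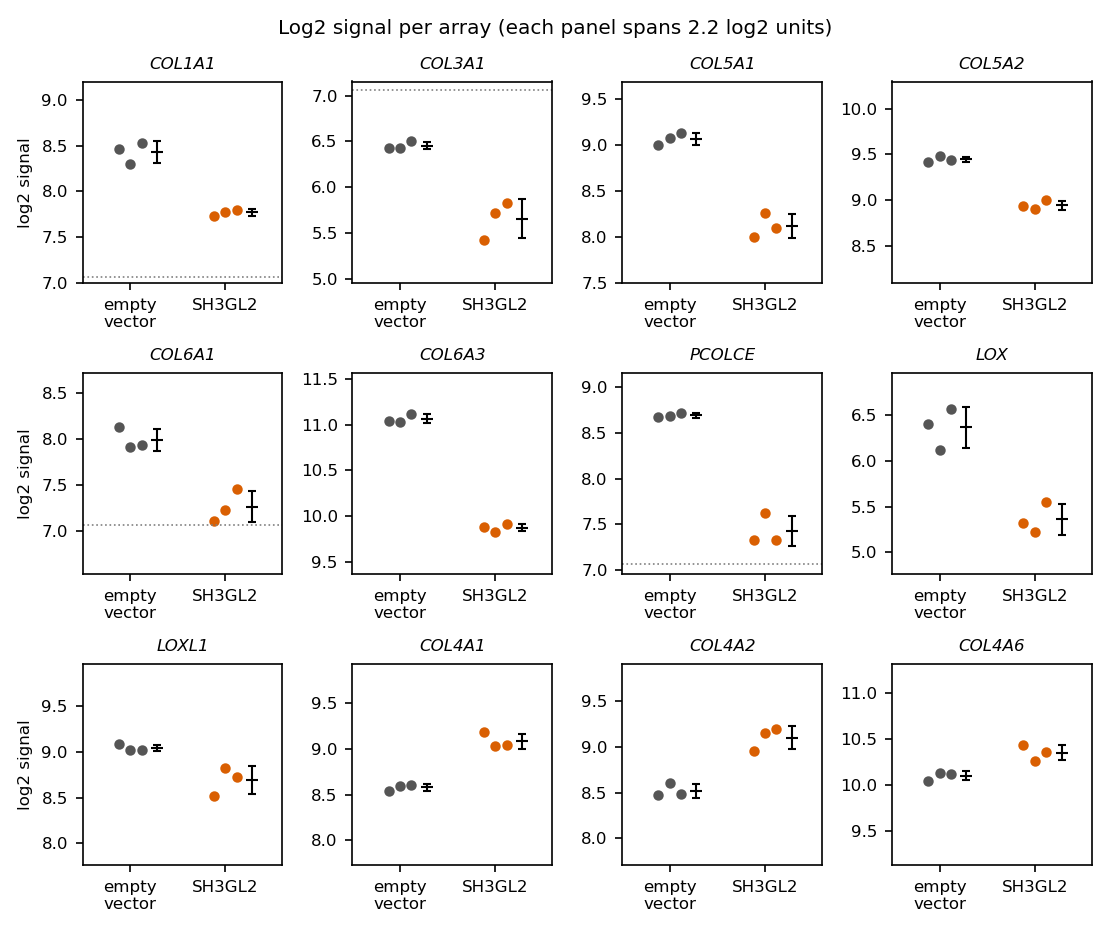
Log2 signal in each array of 12 of the 13 called genes (LOXL2 is left out) on the probe set with the highest mean, with empty vector in grey and SH3GL2 in orange; the bar beside each group is its mean ± SD (n = 3), the dotted line is the reference 95th percentile where it falls inside the panel, and each panel spans 2.2 log2 units at its own level. COL1A1 to LOXL1 are lower in all SH3GL2 arrays and COL4A1, COL4A2 and COL4A6 higher in all, with no overlap in any panel.

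Of 69 measured pathway genes outside the list, 8 fell and 4 rose on their brightest probe sets, beside the 2.36% and 2.54% over all genes. No difference between these genes and the members was tested. The 9 further collagen chains, among them cartilage chains, were all under the reference 95th percentile and none was called (1 was lower at an unadjusted p under 0.05, and none passed by analysis of variance). None of 13 collagen-degrading proteases and uptake receptors was called either, with 1 lower at an unadjusted p under 0.05 and none by analysis of variance.

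Of 23 other processing genes 1 fell and 2 rose. PCOLCE2, a paralogue of PCOLCE with the same kind of enhancer activity, read 9.71, 9.62 and 9.76 against 9.97, 10.00 and 10.11, a rise of 0.33 (SE 0.07, adjusted p = 0.0128, limma). P3H2, a prolyl 3-hydroxylase known for its action on collagen IV, read 10.55, 10.47 and 10.55 against 10.75, 10.77 and 10.84, a rise of 0.26 (SE 0.06, adjusted p = 0.0187). In both, all SH3GL2 arrays were above all controls. The count of higher genes over all 69 pathway genes, 4 in the main test, was 1 without empty vector array 2 or SH3GL2 array 3. P3H1, another prolyl 3-hydroxylase, was lower in every SH3GL2 array without a call (-0.32, adjusted p = 0.0558, limma). PDIA4, a disulfide isomerase of general folding, fell by 0.38 (adjusted p = 0.0102) on 1 probe set and gave -0.16 without a call on the other.

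Among 8 collagen receptors, ITGA2, the alpha chain of the collagen-binding integrin alpha2 beta1, rose by 0.69 (SE 0.08, adjusted p = 2.38e-04, limma) and ITGB1, its beta partner, fell by 0.25 (adjusted p = 0.0275). The other ITGB1 probe sets all lay under the reference median and were not called. One of these, 215879_at, was higher in every SH3GL2 array (0.17). Collagen-binding matrix proteins gave 6 lower and 1 higher of 16. Thrombospondin THBS1 fell by 0.90 (adjusted p = 2.18e-05), tenascin TNC by 0.39 (adjusted p = 0.00490), fibronectin FN1 by 0.31 (adjusted p = 0.00592) and fibrillin FBN1 by 0.39 (adjusted p = 0.0217). SPARC and TGFBI were the remaining decreases. These values are from the brightest probe set of each gene. The second, dimmer probe sets of TNC (-0.04, adjusted p = 0.931, limma) and FBN1 (-0.18, adjusted p = 0.580) did not pass. THBS1 and FN1 also had dimmer probe sets that were lower without a call, beside others that passed. The 1 higher gene, the fibril-coating proteoglycan DCN, rose by 0.27 (adjusted p = 0.0284, limma) on its brightest probe set, which carries the _x_ suffix. A dimmer DCN probe set passed as well (0.30, adjusted p = 0.0386). Its remaining probe sets did not pass (0.22 and 0.13), and their groups overlapped.

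Cell type markers were read beside these results. Of 6 mesenchymal markers 4 fell with SH3GL2 (TWIST1 by 0.67, ZEB1 by 0.62, SNAI2 by 0.37 and FN1 by 0.31). VIM (-0.11, adjusted p = 0.103, limma) and CDH2 (-0.21, adjusted p = 0.210) were not called. The log2 of the summed signal of all 6 ran from 15.39 to 15.42 with empty vector and from 15.17 to 15.22 with SH3GL2. VIM and FN1, the brightest (14.68 and 13.56 with empty vector), weigh most in that sum. Of 8 breast epithelial markers none was called (limma; 1 higher at an unadjusted p under 0.05, none by analysis of variance). KRT7, KRT8 and KRT18 were above the reference 95th percentile and KRT5 was under it. EPCAM, CDH1, KRT14 and KRT19 were under the reference median. Summed levels were 13.04 to 13.14 with empty vector and 13.10 to 13.37 with SH3GL2.

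Of 8 fibroblast markers 1 rose (DCN), with a summed level of 10.90 to 11.00 in the empty vector arrays and 11.11 to 11.20 in the SH3GL2 arrays. At an unadjusted p under 0.05 in limma 3 were higher and 0 lower, beside 9.94% and 7.56% over all genes. DCN, PDGFRA, PDGFRB and PDPN, the brightest of them, were above the reference 95th percentile. PDGFRA gave 0.46 (adjusted p = 0.0582, limma), PDPN 0.21 (adjusted p = 0.149) and PDGFRB -0.01, without a call. THY1 lay under that percentile, and LUM, POSTN and FAP were under the reference median. All 6 endothelial and 4 leukocyte markers lay under the reference 95th percentile, with no call (none at an unadjusted p under 0.05 or by analysis of variance). The part of the mesenchymal and fibroblast markers in the collagen results was not tested.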

How the data were processed

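Total RNA of SUM-159 cells was extracted with Trizol, labelled with biotin and hybridised to Affymetrix human genome arrays, 3 per group. The authors deposited 1 table of log2 values for 22277 probe sets, and per the labels MAS5 was used. Its version and any scaling between arrays are not given in the sources used here. That the deposited values are log2 was read from their range (the highest, 15.31, is a linear signal of 40622.7). All columns were mapped to arrays by title.

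The 62 Affymetrix control probe sets were left out. Of the 22215 others, 19064 had 1 gene symbol in the platform annotation, 1043 several and 2108 none, and names came from those with 1 only. The groups were compared with limma 3.58.1 (R 4.3.3; lmFit, then eBayes with its prior following mean intensity; tests were two-sided). P-values were adjusted by Benjamini-Hochberg over all 22215, with a threshold of 0.05. Levels of probe sets of different sequence were not tested against each other. They served only to choose the brightest probe set of a gene, to place probe sets beside the reference and to sum markers. An exact permutation test of 3 against 3 cannot go below p = 0.1, so none is given. The number of arrays limits the precision.

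Values per array are given for members called on any probe set and for their partner chains, the others as ranges, and up to 4 genes of each pathway list are named by smallest adjusted p, with DCN, SPARC and TGFBI and the markers named after their values were seen. The members and lists were chosen with earlier results of these data known. The methods name analysis of variance for the study as a whole and no test for the arrays, so it was computed as an alternative, beside other normalizations, filters, thresholds, the replicate number as a block and each array left out in turn. Promoter windows of 26 of the 35 genes matched RefSeq (GRCh38.p14), each read over its 250 bases before the start. The replicate numbers were not used as pairs in the main test, since the methods name no pairing. The fit was run on simulated arrays with independent noise, in which 200 of 22215 probe sets were changed. There limma called 4% of 1.2-fold, 70% of 1.5-fold and 89% of 2-fold changes with the right sign, with 3 false calls. The arrays gave more calls (485 lower and 441 higher) than the simulation had changes, and the adjustment of p-values depends on that number. The shares recovered may therefore differ in the real data. A gene that did not pass is not shown to be unchanged.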

Additional observations from a re-analysis of the deposited data

How the results depend on the processing

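Of 160 counts recomputed under alternatives, 109 stayed within 1.5 times the reported count, and no log2 fold change of the 22 called probe sets turned its sign in 322 refits, of which 67 lost the call. Counts for the single classes and the pathway under alternatives were added after seeing the data. Raising values to the reference median left 8 probe sets lower and 1 higher, 5 genes lower and 1 higher, 1 pathway gene lower and 2 higher, 1 collagen IV gene higher and 0 lysyl oxidases lower (162 lower and 137 higher of all probe sets). One-way analysis of variance left 3 probe sets lower and 0 higher, 2 genes lower and 0 higher, 0 pathway genes either way, 1 fibrillar gene lower, 0 collagen IV genes higher and 0 lysyl oxidases lower (44 lower and 33 higher of all). A change of at least 2-fold left 3 probe sets lower and 0 higher, 3 genes lower and 0 higher, 0 pathway genes either way, 0 fibrillar genes, 0 collagen IV genes and 1 lysyl oxidase. At an adjusted p under 0.01 there were 2 probe sets higher, 3 pathway genes lower and 1 higher, and 1 lysyl oxidase lower; without the intensity trend 3 pathway genes were lower and 1 higher, and 1 lysyl oxidase lower. The brighter 11106 probe sets alone held 11 member probe sets lower, and averaging the probe sets of each gene gave 5 pathway genes lower. The former is the reported count less the lower probe sets too dim to be among those tested. For probe sets with no value under the reference median, raising values left the log2 fold change as it was. Only the spread that limma shares between probe sets and the adjustment of p-values differed there. For the other settings the cause was not tested.

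Leaving out each array in turn gave 14 to 16 probe sets lower and 2 to 4 higher, 8 to 9 genes lower and 2 to 3 higher, 3 to 7 pathway genes lower and 1 to 4 higher, 4 fibrillar genes lower each time, 2 to 3 collagen IV genes higher and 1 to 2 lysyl oxidases lower. Same-numbered arrays had residual correlations of -0.01, 0.13 and 0.15, beside -0.16 to 0.02 for arrays of different numbers between the groups. Whether the numbers mark shared batches is not given in the sources used here and was not tested. The main test took no pairs since the methods name none. With the replicate block, 573 of all probe sets were lower and 506 higher, beside 485 and 441 in the main test. With the replicate block 18 probe sets were lower and 3 higher, 10 genes lower and 2 higher, 9 pathway genes lower and 4 higher, 4 fibrillar genes and 3 lysyl oxidases lower and 2 collagen IV genes higher; COL4A6 alone among the called member probe sets lost its call (adjusted p = 0.0516). COL6A3 and COL5A2 on 221729_at kept their calls in every refit; COL5A2, at -0.50, was among those that a 2-fold minimum leaves out. Signal near the reference limits what can be said of COL3A1, LOX, COL1A2 and COL6A2.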
